A study of Mus musculus with 2 samples.

Results

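The 140 olfactory receptor (OR) genes described here are the smaller holdings of a very large gene family. They are all genes of the GENCODE M21 annotation whose symbol is Olfr followed by a number and which lie on mouse autosomes other than 2, 7, 9, 10, 11, 14, 16, 17 and 19. By this rule for symbols the annotation has 1407 OR genes on the autosomes and X, of which 1259 are on those 9 other autosomes. The 140 genes were spread over 9 chromosomes, with 36 on chromosome 6, 34 on chromosome 1, 30 on chromosome 4, 16 on chromosome 13, 10 on chromosome 15, 5 each on chromosomes 3 and 8, 3 on chromosome 5 and 1 on chromosome 12. Protein-coding genes made up 111 of them and pseudogene types 29. The authors mapped chromosome contacts with in situ Hi-C, in sensory neurons sorted from the olfactory epithelium of untreated adult P2-GFP mice of mixed sex on the 129P2/OlaHsd strain. The neurons were sorted for the receptor Olfr17 (P2), which lies on chromosome 7 and is none of the 140. There were 2 biological replicates, of 23000 and 20000 cells, and they formed 1 group with no comparison group. The values used here are 1 list of 7576 domain boundaries called on both replicates combined.

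An olfactory sensory neuron transcribes a single OR gene from one allele and keeps the rest of the family silent in heterochromatin. OR genes arose by local duplication and mostly sit in tandem clusters. In Hi-C, which counts ligated pairs of nearby DNA ends, domain boundaries separate neighbouring stretches of a chromosome that contact each other little, and many boundaries in mammals carry the DNA-binding protein CTCF.

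Each boundary was a bin of 5 kb with a class, Strong or Weak, and a score without a stated unit. Every Strong score was at least 0.50 and every Weak score was lower. An interval is the stretch between the midpoints of neighbouring boundaries, and a gene was placed by its transcription start site (TSS). For the 5 of the 140 TSSs that lie inside a boundary's own bin, the bin does not resolve the side. Neighbouring OR genes with TSSs under 500 kb apart form a locus, called lone with 1 gene, a small group with 2 to 4 and a cluster with 5 or more. The spread between replicates could not be measured from a combined list, so no comparison below has a test. The 95% intervals in parentheses are exact and cover counting error only. They treat genes as independent, but genes of a locus share their boundaries, so these 95% intervals are too narrow. The list holds no expression values, and the identity of the sorted cells was not checked here against marker genes.

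OR genes of these 9 chromosomes lay closer to boundaries than OR genes on the other autosomes. The interval of their share within 25 kb includes both that of other protein-coding genes and that of all positions. A boundary midpoint lay within 25 kb of 29 of the 140 TSSs (20.7%, 14.3 to 28.4). The share was 10.9% for OR genes on the other autosomes (137 of 1259), 25% for protein-coding genes that are no OR gene (4915 of 19679) and 15.3% for all sequenced autosomal positions. Within 10 kb the 140 genes had 9.29%, against 4.69% of OR genes on the other autosomes, 12.1% of other protein-coding genes and 6.28% of positions. The median distance to the nearest boundary was 62.8 kb for the 140 genes, with quartiles of 31.5 and 94.3 kb. It was 105 kb for OR genes on the other autosomes, 56.9 kb for other protein-coding genes and 88 kb for all positions. With Strong boundaries alone the shares within 25 kb kept their order, at 12.1% of the 140 genes (17), 4.53% of OR genes on the other autosomes and 16.9% of other protein-coding genes. The medians did not keep theirs, since with Strong boundaries the 140 genes had the shortest, at 83.9 kb, against 289 kb for OR genes on the other autosomes and 92.6 kb for other protein-coding genes.

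**Figure D1:**
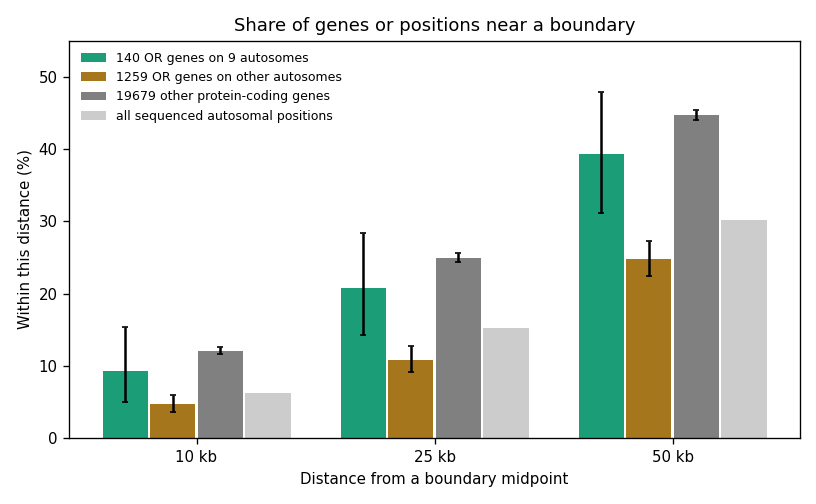
Share of TSSs, or of autosomal positions, within 10, 25 and 50 kb of a boundary midpoint, for the 140 OR genes, the 1259 OR genes on the other autosomes, 19679 other protein-coding genes and all sequenced positions. Error bars are exact 95% binomial intervals for counting error, and at 25 kb the 140 OR genes stand at 20.7%, against 10.9% of OR genes on the other autosomes.

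The chromosomes differed in this respect. On chromosome 13, 9 of 16 OR genes lay within 25 kb of a boundary and the median distance was 21.4 kb. On chromosome 6, none of 36 did, and the nearest of them, Olfr444, lay 33.4 kb away, with a median of 93.7 kb for the chromosome. Chromosome 1 had 8 of 34 genes within 25 kb, chromosome 4 had 5 of 30, and chromosome 15 had 3 of 10. Without chromosome 13 the share fell to 16.1%, and without chromosome 6 it was 27.9%.

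The 140 genes fell into 28 loci, with 118 genes in 10 clusters, 7 in 3 small groups and 15 lone. Together they occupied 36 intervals, and 19 of these held a single OR gene, while 12 held 5 or more and contained 108 of the 140 genes. The median was 1 OR gene per interval (range 1 to 15), against 10 (1 to 55) in the 97 intervals with OR genes on the other autosomes. Intervals with any of the 140 genes had a median length of 295 kb (90 to 1920), against 325 kb for those on the other autosomes and 260 kb for all 7150 autosomal intervals. With Strong boundaries alone the median for the 140 genes was 515 kb. Counted once per gene, with all boundaries, the median interval length was 302.5 kb for the 140 genes. It was 485 kb for the 1254 OR genes on the other autosomes with a boundary on both sides. The intervals also held other genes, and 6 of 36 (16.7%, 6.37 to 32.8) had no protein-coding TSS but those of OR genes, against 37 of 97 (38.1%, 28.5 to 48.6) on the other autosomes and 23.5% of all autosomal intervals.

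**Figure D2:**
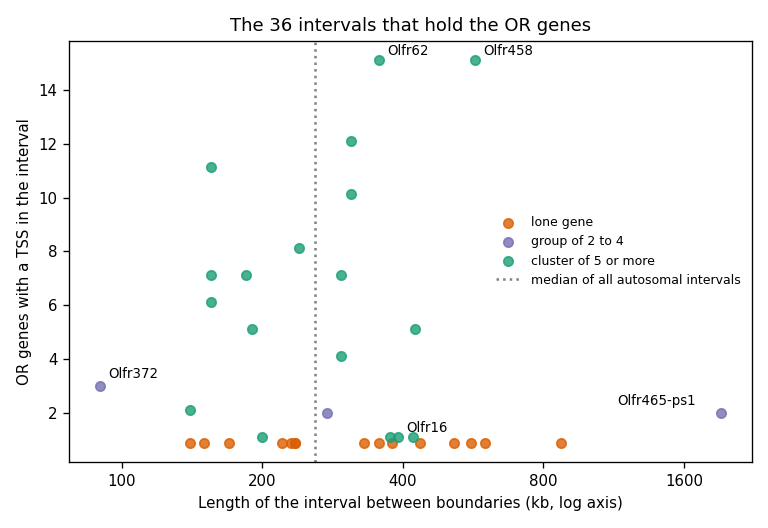
Number of OR TSSs in each of the 36 intervals against the interval's length (log axis), coloured by kind of locus and shifted slightly so that points do not hide each other. The intervals starting at Olfr62 and Olfr458 held 15 OR genes each, Olfr16 was alone in 390 kb, and the dotted line marks the 260 kb median of all autosomal intervals.

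Lone genes and clustered genes did not differ clearly in their place within an interval. The 15 lone genes lay a median of 64.5 kb (4.78 to 285) from the nearest boundary, the 7 genes of small groups 22.7 kb (3.72 to 87.0) and the 118 clustered genes 64.4 kb (0.308 to 261). The ranges of the 3 kinds overlap, and that of the small groups ends well below the others. Within 25 kb of a boundary were 3 of 15 lone genes (20%, 4.33 to 48.1), 4 of 7 in small groups (57.1%, 18.4 to 90.1) and 22 of 118 in clusters (18.6%, 12.1 to 26.9). Median interval lengths were 330 kb for lone genes (140 to 875), 275 kb for small groups (90 to 1920) and 295 kb for clusters (140 to 570), with a median of 2 other protein-coding TSSs for lone genes and 2 for clusters. The kinds differed in gene type, since 8 of 15 lone genes were annotated as pseudogene types (53.3%, 26.6 to 78.7), against 21 of 118 clustered genes (17.8%, 11.4 to 25.9) and none of 7 in small groups, which allows a share of up to 41.0%.

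**Figure D3:**
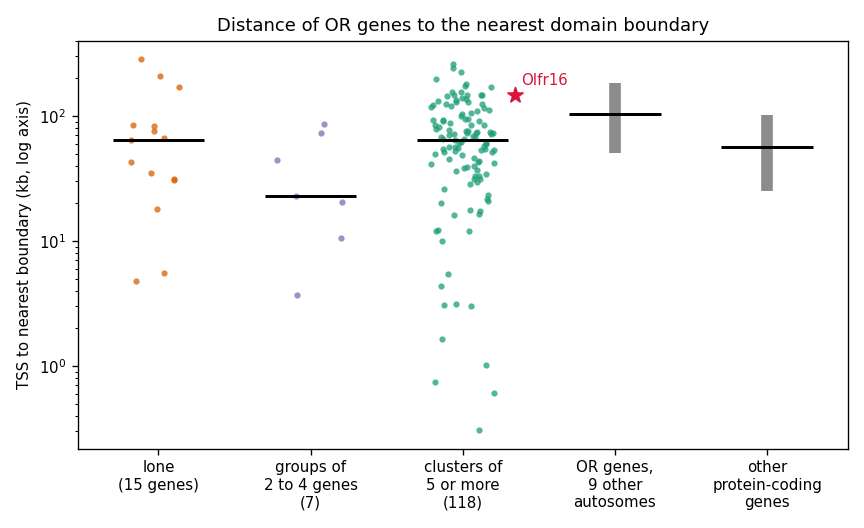
Distance from each OR TSS to its nearest boundary (kb, log axis) for lone genes, small groups and clusters, with black bars at the medians and Olfr16 as a star. On the right, grey bars span the quartiles of the 1259 OR genes on the other autosomes and of other protein-coding genes, whose medians are 105 and 56.9 kb.

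Olfr16, also known as MOR23, is a receptor for the odorant lyral and one of the most studied in mouse. It lies on the plus strand of chromosome 1 at chr1:172950409-172958357 (GRCm38) and was among the members farthest from a boundary, at rank 126 of 140 with 147 kb. Its interval of 390 kb stands at percentile 74.7 of autosomal interval lengths and holds 1 other protein-coding gene, Apcs, which encodes serum amyloid P and starts 55.4 kb away. No other OR gene shares that interval, yet Olfr16 is not isolated along the chromosome. The next OR gene, the pseudogene Olfr1409-ps1, starts 148 kb downstream, and 7 OR genes from there to Olfr418 form a cluster of 8 with Olfr16. The separation rests on 1 Weak boundary at chr1:173095001-173100000, whose score of 0.224 stands at percentile 7.23 of the list and which lay 0.748 kb from the TSS of Olfr1409-ps1. With Strong boundaries alone Olfr16 shared an interval of 575 kb with the other 7 genes.

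**Figure D4:**
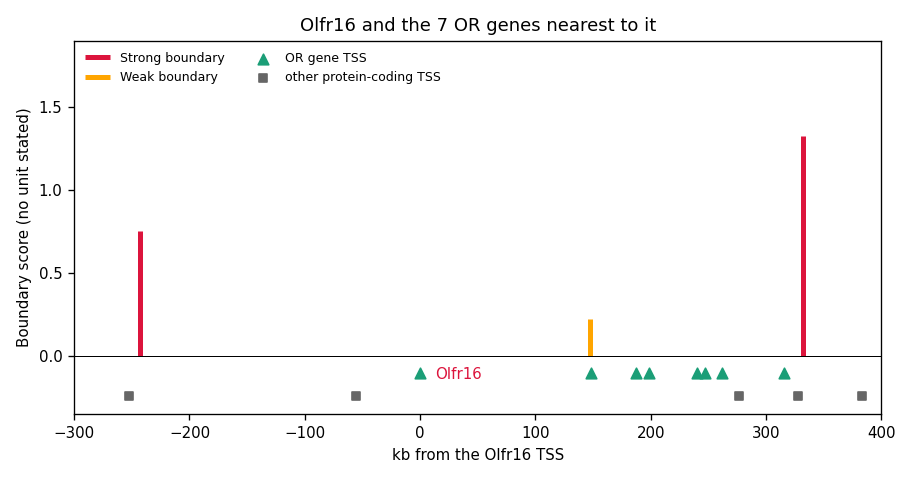
Boundaries (vertical bars, height is the score) around the Olfr16 TSS at 0 kb, with OR TSSs as triangles and other protein-coding TSSs as squares. The Weak boundary to the right of Olfr16, with a score of 0.224, stands beside Olfr1409-ps1, while the Strong boundary that ends the cluster has a score of 1.33.

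The promoter of Olfr16 is shown because OR promoters are known for sites of the Ebf factors and of homeodomain factors such as Lhx2. It was searched on both strands for the O/E palindrome bound by Ebf factors (TCCC and GGGA with any 2 bases between them) and for the homeodomain motif TAATTA, and this window of 250 bases before to 50 bases after the GENCODE TSS (chr1:172950159-172950458, plus strand) held neither. Only exact matches were counted, so sites of another form would be missed. The RefSeq start of the gene lies 6.36 kb downstream of the GENCODE start and was not used for this window.
Olfr16 promoter: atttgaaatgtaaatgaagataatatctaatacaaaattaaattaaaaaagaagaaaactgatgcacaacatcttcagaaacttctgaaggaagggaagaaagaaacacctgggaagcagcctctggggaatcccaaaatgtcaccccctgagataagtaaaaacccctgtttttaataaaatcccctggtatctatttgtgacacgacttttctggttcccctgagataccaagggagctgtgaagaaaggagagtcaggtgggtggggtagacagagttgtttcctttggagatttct
Across the 140 genes the O/E palindrome was found in 4 windows (2.86%) and TAATTA in 22 (15.7%). Among the 111 protein-coding members the O/E palindrome was found in 4 (3.60%, 0.990 to 8.97), against 2.36% of protein-coding OR genes on the other autosomes and 0.935% of other protein-coding genes. TAATTA was found in 16 of the 111 (14.4%, 8.47 to 22.4), against 25.3% of protein-coding OR genes on the other autosomes and 4.12% of other protein-coding genes. The windows differ in base composition, with a median GC content of 43.7% for the 111 protein-coding members, 36.7% for protein-coding OR genes on the other autosomes and 56% for other protein-coding genes. They also rest on the GENCODE starts, whose completeness was not checked for any of these groups. Where an annotated start is not the true one, the window may miss the promoter.

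Chromosome 13 carried the members nearest to boundaries. Its cluster of 13 genes from Olfr1370 to Olfr1359 spans 638 kb (chr13:21069334-21706833) between Aoah, encoding an enzyme that inactivates bacterial lipopolysaccharide, and the histone gene Hist1h2bl, and 4 boundaries divide it. Olfr1366 starts 0.308 kb from a Weak boundary with a score of 0.444 and Olfr1359 starts 0.611 kb from a Strong boundary with a score of 1.33. Olfr1368 starts 1.63 kb from another Strong boundary, with a score of 1.30, and all 3 TSSs lie inside the boundary's own bin. From left to right, Olfr1370 to Olfr1368 form a group of 4 in an interval of 295 kb. By TSS, Olfr1367 was the only OR gene in 200 kb, and it started 4.41 kb from the left boundary. Its interval had 10 other protein-coding genes, 5 of them Zscan or Zkscan zinc finger genes. Most of the gene body of Olfr1366 also lies there, since its TSS is only 0.308 kb beyond the right boundary. The 7 genes from Olfr1366 to Olfr1360 are all on the minus strand. From end to end they span 87.0% of a 155 kb interval that contains no other protein-coding TSS. Olfr1359 lay on the far side of the next boundary, in a 375 kb interval with 26 other protein-coding genes, of which 23 are Hist1h genes encoding histones.

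The promoters of Olfr1366 and Olfr1359 are shown because a boundary bin covers both TSSs. Capitals mark a match to the O/E palindrome that begins 136 bases before the Olfr1366 TSS, and a match to TAATTA that begins 192 bases before that of Olfr1359. The windows are chr13:21542759-21543058 on the minus strand for Olfr1366 and chr13:21697861-21698160 on the plus strand for Olfr1359 (GRCm38).
Olfr1366 promoter: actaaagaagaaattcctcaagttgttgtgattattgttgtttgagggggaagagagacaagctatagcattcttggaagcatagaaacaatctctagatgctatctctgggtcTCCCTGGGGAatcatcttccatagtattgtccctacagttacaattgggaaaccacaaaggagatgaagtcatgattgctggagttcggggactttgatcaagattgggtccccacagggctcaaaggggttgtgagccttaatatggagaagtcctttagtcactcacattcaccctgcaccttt
Olfr1359 promoter: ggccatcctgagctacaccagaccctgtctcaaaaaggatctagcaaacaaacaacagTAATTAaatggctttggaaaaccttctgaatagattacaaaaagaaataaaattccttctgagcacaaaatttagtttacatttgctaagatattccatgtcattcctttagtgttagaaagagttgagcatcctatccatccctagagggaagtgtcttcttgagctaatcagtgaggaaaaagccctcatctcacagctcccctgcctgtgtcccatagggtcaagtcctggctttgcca
The other 2 TSSs inside a boundary bin besides these and Olfr1368 were those of the pseudogenes Olfr1409-ps1 and Olfr421-ps1, and neither of the motifs was found in their windows or in that of Olfr1368.

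Chromosome 1 has 2 further clusters. The 8 genes from Olfr1416 to Olfr12 (chr1:92475925-92623412) lay in a single 240 kb interval, which they shared with Ndufa10, encoding a subunit of respiratory complex I, and Cops9, encoding a subunit of the COP9 signalosome. The 18 genes from Olfr433 to Olfr220 (chr1:174040705-174451277) were divided 11 to 7 by a Weak boundary with a score of 0.332 between Olfr421-ps1 and Olfr420, 1.02 and 3.13 kb from their TSSs. The first 11 took 155 kb with the interferon-inducible gene Ifi205, and the last 7 took 295 kb. The right end of this cluster had the highest score among the boundaries that flank the 140 genes, at 3.10, with a midpoint that lies within Olfr220. The TSS of Olfr220 is 5.42 kb from it, and the neighbouring gene Fmn2, encoding a formin, is on the other side.

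Chromosome 15 showed the closest match between a cluster and an interval. From end to end, the 10 genes from Olfr288 to Olfr278-ps1 (chr15:98186013-98502637) span the whole of a 310 kb interval. Their outer ends pass the midpoints of the Strong boundaries on both sides, which have scores of 1.44 and 2.00. The first gene, Olfr288, and the last, Olfr278-ps1, start 3.04 and 3.10 kb from these boundaries, and the boundary midpoints fall inside the gene bodies of Olfr288 and Olfr279. The interval also holds 5 other protein-coding genes, among them Lalba, which encodes alpha-lactalbumin, and OR5BS1P. The symbol of OR5BS1P has the form of an OR gene but does not begin with Olfr, so OR5BS1P was not counted as an OR gene here. Ccdc184 and Kansl2 are the nearest protein-coding genes outside the cluster.

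Chromosome 4 has 3 clusters of different form. The 15 genes from Olfr62 to Olfr1328 (chr4:118658952-118938612) share 355 kb with Lao1, an L-amino acid oxidase gene, between Strong boundaries with scores of 2.45 and 1.21, and none of these genes came closer than 31.5 kb to a boundary. The 8 genes from Olfr70 to Olfr155 (chr4:43694784-43857595) were divided 2 to 6 by a Strong boundary with a score of 0.584 between Olfr71 and Olfr269-ps1. Olfr70 and Olfr71 thus lay with 6 other protein-coding genes in 140 kb, and the other 6 OR genes in 155 kb with 3, among them Reck, an inhibitor of matrix metalloproteinases. In the third cluster, Olfr275 to Olfr270 (chr4:52814604-52972474), a Strong boundary with a score of 0.573 set 5 genes apart from Olfr270, which lay in a 420 kb interval with Nipsnap3a, Nipsnap3b and the cholesterol exporter gene Abca1.

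Chromosome 6 holds the largest locus of the 140 genes. The 27 genes from Olfr458 to Olfr47 span 777 kb (chr6:42459979-43236959), and 1 Weak boundary with a score of 0.380 divides them 15 to 12 between Olfr444 and Olfr443-ps1. The first 15 lie in 570 kb together with Tas2r126, a bitter taste receptor gene, and 3 Tcaf genes, whose products bind a cold-activated ion channel. Olfr454-ps1, Olfr453 and Olfr38 in this interval were among the 5 members farthest from a boundary, at 261, 243 and 226 kb. The last 12 are all on the plus strand, in 310 kb with Arhgef5, a guanine nucleotide exchange factor gene. A separate cluster of 5, from Olfr211 to Olfr215 (chr6:116489091-116584195), lay in a 190 kb interval with Alox5, a leukotriene synthesis gene, and Gm5580.

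**Figure D5:**
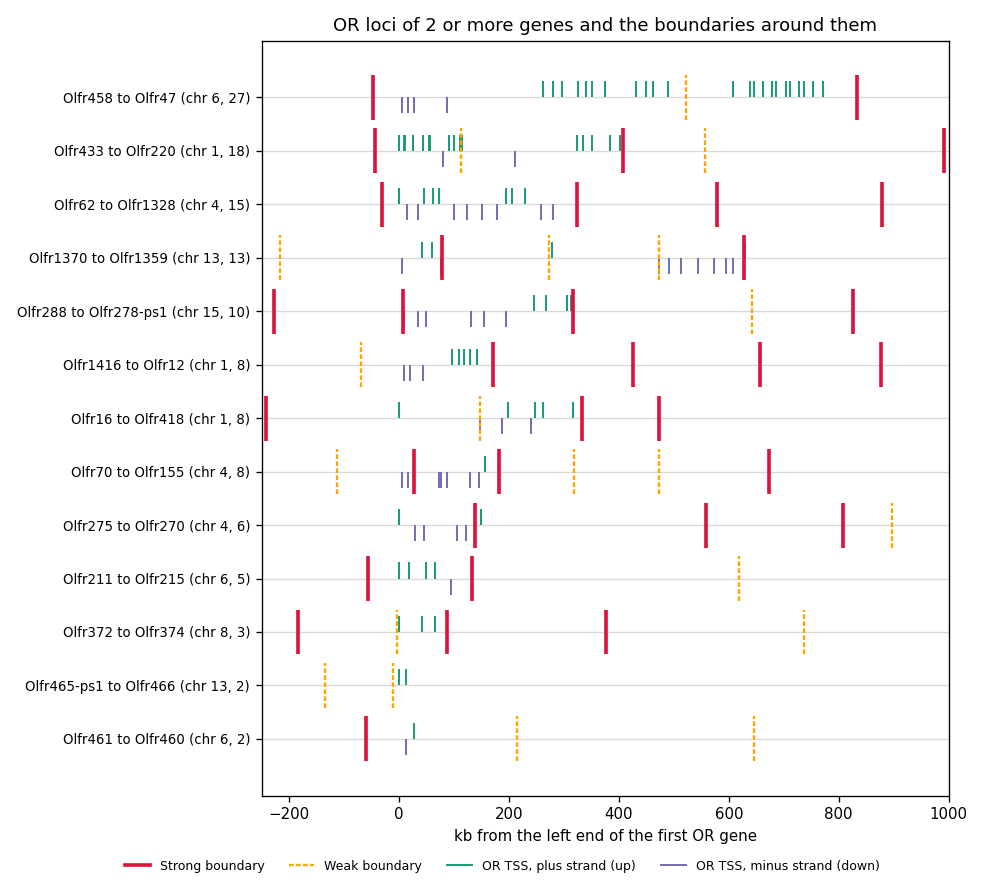
The 13 loci of 2 or more OR genes, each drawn from the left end of its first gene (0 kb) with its chromosome and number of genes in parentheses. Ticks are OR TSSs (plus strand up, minus strand down), solid red bars are Strong boundaries and dashed orange bars are Weak ones, and the cluster of Olfr1370 to Olfr1359 is divided by 4 boundaries while that of Olfr62 to Olfr1328 has none inside.

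Ends of loci with 2 or more genes were closer to boundaries than positions at large, in a share close to that of OR loci elsewhere. Of the 26 ends of loci with 2 or more of the 140 genes, 18 had a boundary within 50 kb (69.2%, 48.2 to 85.7), against 64.5% of 62 ends on the other autosomes and 30.1% of all positions. Both ends of the small group Olfr465-ps1 and Olfr466 were counted by the same Weak boundary. The 10 clusters had a boundary within 50 kb at both ends in 4 cases and at 1 end in 6. At the right end of Olfr1370 to Olfr1359, the left end of Olfr70 to Olfr155 and the right end of Olfr275 to Olfr270 this boundary lies inside the cluster and is also one of those that divide it. A boundary divided 6 of the 13 loci between OR TSSs (46.2%, 19.2 to 74.9), against 71% of 31 loci on the other autosomes. The clusters there are larger, with 1227 genes in 23 clusters against 118 in 10, and a longer locus has more room for a boundary. All 6 divided loci of the 140 genes were clusters of 6 or more genes, and no small group was divided. With Strong boundaries alone the divided loci fell to 23.1%. Clusters held 12 boundaries between their outer gene ends in 3.31 Mb, or 3.63 per Mb (1.87 to 6.34). Clusters on the other autosomes, counted alike, held 2.33 per Mb (1.79 to 2.99), and all autosomes 2.99 per Mb. The 12 include those with midpoints inside Olfr288, Olfr279 and Olfr220 at cluster ends, and 9 of the 12 lay between member TSSs. Of the 9 boundaries between members of a locus, 3 lay between neighbours on the same strand.

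The small groups included the shortest and the longest interval. From end to end, Olfr372, Olfr373 and Olfr374 on chromosome 8 span 85.5% of a 90 kb interval with no other protein-coding TSS. That interval stands at percentile 0.909 of autosomal interval lengths. Cyp4f18, a cytochrome P450 gene, and Tpm4, a tropomyosin gene, lie outside it on either side. On chromosome 13, Olfr465-ps1 and Olfr466, both annotated as protein-coding, start 10.6 and 22.7 kb from a Weak boundary with a score of 0.212 and lie in an interval of 1920 kb. In that stretch only 42.7% of simulated reads of 100 bases aligned uniquely to the reference, against 91.2% for the autosomes, and whether this bears on the length of the interval was not tested. The third group, Olfr461 and Olfr460 on chromosome 6, shares 275 kb with 3 Tas2r bitter taste receptor genes and the immune receptor gene Clec5a.

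Lone genes lay in very different surroundings. Olfr267 on chromosome 4 and the pseudogene Olfr1398-ps1 on chromosome 3 were the lone genes nearest to a boundary, 4.78 kb from a Strong one with a score of 1.69 and 5.56 kb from a Strong one with a score of 2.47. Their nearest protein-coding genes, Ecpas, encoding a proteasome adaptor, and Foxo1, a forkhead transcription factor gene, lie on the far side of those boundaries. Olfr375-ps1 followed at 18.2 kb from a Weak boundary and was the only other lone gene within 25 kb. Next came Olfr1401-ps1 at 30.9 kb, in 230 kb shared with the growth factor receptor gene Pdgfra, then Olfr371 at 31.5 kb and Olfr718-ps1 at 35.1 kb with 9 other protein-coding genes in its interval.

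At the other end, Olfr717-ps1 on chromosome 13 was farthest of the 140 genes from a boundary, 285 kb away in an 875 kb interval without any protein-coding TSS, with Ipo11, an importin gene, 739 kb off. Olfr459 on chromosome 6 was 208 kb from a Weak boundary, in an interval with Kel, Pip and the calcium channel genes Trpv5 and Trpv6. It is separated from Olfr460 by 1206 kb that hold 53 T cell receptor genes and pseudogenes and 3 boundaries. Olfr241-ps1 on chromosome 12 lay 42.6 kb from a Strong boundary among 19 immunoglobulin variable genes and pseudogenes, with no other protein-coding TSS in 235 kb, and 76.6% of simulated reads there were unique. The remaining lone genes were Olfr1402 (64.5 kb), Olfr370 (66.7 kb), Olfr266 (76.2 kb), Olfr210-ps1 (83.7 kb), Olfr719-ps (84.2 kb) and Olfr289-ps1 (170 kb), where the value is the distance to the nearest boundary.

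The boundaries at the ends of the 36 intervals were Strong in 40 of 65 cases (61.5%, 48.6 to 73.3), against 54.4% of 136 around OR genes on the other autosomes and 54.6% of all autosomal boundaries. Their median score was 0.755, against 0.538 around OR genes on the other autosomes and 0.564 for all autosomal boundaries. Both ends were Strong in 11 intervals, 1 end in 21 and neither in 4. By kind of locus, Strong boundaries made up 18 of 30 around lone genes, 2 of 6 around small groups and 20 of 29 around and within clusters. These counts leave the kinds with overlapping intervals, at 40.6 to 77.3%, 4.33 to 77.7% and 49.2 to 84.7%.

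CTCF sequence matches were about as frequent at these boundaries as at all autosomal boundaries. Their share was above that around OR genes on the other autosomes, but not for the boundaries around and within clusters. A match to the CTCF core consensus lay within 10 kb of 38 of the 65 boundaries (58.5%, 45.6 to 70.6), against 44.1% of those around OR genes on the other autosomes, 59% of all autosomal boundaries and 41.8% of all positions. A match on each side pointing into the interval was present for 9 of 36 intervals (25%, 12.1 to 42.2), against 19% of all autosomal intervals. Inside the clusters there were 26.9 matches per Mb (21.6 to 33.1), against 35.4 per Mb on the autosomes. Of the 29 boundaries around and within clusters, 13 had a match within 10 kb. This is close to the 44.1% on the other autosomes, where 1227 of the 1259 OR genes are in clusters. The 16 with no match within 10 kb included the Strong boundary with a score of 3.10 at the end of the Olfr220 cluster. Its nearest match was 60.8 kb away. A match is a sequence and not measured binding.

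The matches nearest to 6 of the boundaries named above are shown with 10 bases on each side, because they fall into different kinds. Capitals mark the core match, read 5′ to 3′ on the strand of the match. The positions on GRCm38 are chr1:173089623-173089654 (minus) for the boundary between Olfr16 and Olfr1409-ps1, chr13:21147279-21147310 (minus) for that beside Olfr1368, chr13:21700004-21700035 (minus) for that beside Olfr1359, chr15:98183679-98183710 (plus) and chr15:98502585-98502616 (minus) for those left and right of Olfr288 to Olfr278-ps1, and chr6:116428467-116428498 (plus) for that left of Olfr211.
right of Olfr16: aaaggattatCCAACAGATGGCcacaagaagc
beside Olfr1368: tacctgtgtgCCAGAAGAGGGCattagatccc
beside Olfr1359: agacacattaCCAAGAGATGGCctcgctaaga
left of Olfr288: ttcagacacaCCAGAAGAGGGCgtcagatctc
right of Olfr278-ps1: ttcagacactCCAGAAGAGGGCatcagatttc
left of Olfr211: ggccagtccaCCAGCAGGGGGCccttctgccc
The windows on either side of the chromosome 15 cluster share 17 of their 20 flanking bases and the core CCAGAAGAGGGC. This likeness was not particular to that pair, since the window left of Olfr288 shares 19 flanking bases, and the window right of Olfr278-ps1 18, with the one left of Olfr275 on chromosome 4. That core form was the commonest, at 7 of the 13 windows examined, and all 7 were in sequence that the reference marks as repeats. Of all 13 windows 8 were so marked, against 66.4% of matches near any autosomal boundary and 70.3% of all autosomal matches. Near the 65 boundaries it made up 38 of 68 matches (55.9%), against 56.9% of all 84922 autosomal matches.

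Genes that act with the receptors in odorant signalling gave a share of the same order. Of 12 genes for the G protein, the cyclase, the ion channels, receptor transport, the olfactory marker protein and a stomatin-like protein, 4 started within 25 kb of a boundary (33.3%, 9.92 to 65.1), against 25% of protein-coding genes that are no OR gene. They were Gng13, a G protein gamma subunit gene, at 0.329 kb, Gnal, encoding the olfactory G protein alpha subunit, at 14.3 kb, Rtp1, encoding a receptor transport protein, at 23.4 kb and Gnb1, a G protein beta subunit gene, at 23.9 kb. The median over the 12 was 40.5 kb, and the farthest was Ano2, encoding a chloride channel, at 82.9 kb.

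Read uniqueness differed little between these regions and the genome. In the 36 intervals a median of 89.6% of simulated reads were unique (42.7 to 97.7), and 2 intervals were under 80%, those of Olfr465-ps1 with Olfr466 and of Olfr241-ps1. Of the 140 genes, 134 had at least 80% unique reads within 50 kb, and among these the share within 25 kb of a boundary was 20.9%. The sources used here do not state how many contacts lie behind the boundaries, so the depth is unknown, and where no boundary was listed one may have gone undetected.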

How the data were processed

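Per the labels' design text, the authors merged the contact lists of both replicates, built 1 matrix and called boundaries from it. The build was GRCm38, per the submitters' processing notes. Each deposited boundary has a 5 kb bin, a class and a score without a stated unit. Aligner, caller and contact number were not given in the sources used here. Contact matrix, insulation and compartment tracks were not used here.

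Genes came from GENCODE M21 and sequence from the RefSeq copy of GRCm38, the same build. The reference is of another strain than the mice, so strain differences in gene copies are not seen. A boundary was placed at its bin's midpoint, and positions every 1 kb of sequenced bases gave the background. CTCF core, O/E palindrome and TAATTA matches were exact and on both strands. Simulated reads of 100 bases, every 500 bases in the intervals and every 5000 on the autosomes, were aligned with minimap2 2.31 and counted as unique from a mapping quality of 30. Intervals are exact (Clopper-Pearson or Poisson, scipy 1.17.1, Python 3.11.15, pandas 2.3.3). Gene placement was tested on simulated data. Alternatives were Strong boundaries, boundaries with scores above the median, protein-coding OR genes, other distances and gaps, well-mapped genes and each chromosome left out.

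The members, lists and rules were chosen with earlier results of these data known. The rule for names took Olfr16 and lone genes, the ends of loci, members beside boundaries inside loci, the 10 members nearest to and the 5 farthest from a boundary, those of the longest and shortest interval, and the nearest other protein-coding genes. Olfr279, further genes of the intervals and the sequences of Olfr1366 and Olfr1359 were chosen after their values were seen, as was the comparison of gene groups with Strong boundaries.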

Additional observations from a re-analysis of the deposited data

How the results depend on the processing

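With Strong boundaries alone, or with boundaries with scores above the median, the share of the 140 OR genes within 25 kb was 12.1% in both cases, the median distance 83.9 kb in both, and the median interval 515 and 550 kb. The share of positions within 25 kb was then 8.34% and 7.82%. Fewer boundaries make all distances longer by construction. Divided loci made up 23.1% under both settings, against 46.2% with all boundaries. A limit of 10 or 50 kb gave shares of 9.29% and 39.3%, and edges with a boundary within 25 or 100 kb made up 42.3% and 92.3%, against 69.2% within 50 kb. Leaving out each chromosome in turn gave 16.1 to 27.9% within 25 kb, medians of 49.2 to 67.4 kb, the lowest of 49.2 kb without chromosome 6, and intervals of 267.5 to 310 kb. Protein-coding OR genes alone gave 19.8% and 63.8 kb. A narrower and a wider gap between genes of a locus gave 46.2% and 41.7% divided loci.

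No paired analysis was possible because the only list was made from both replicates combined. For the same reason no replicate was left out. Small groups comprised only 3 loci, and the depth and caller of the list are unknown, so scores of single boundaries, Weak ones above all, carry no error estimate.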

Other observations

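Boundaries between neighbouring OR genes of the 9 chromosomes were counted by the strands of the genes, and 1 cluster carried most of those between opposite strands. Of 26 neighbouring pairs on opposite strands 5 had a boundary between their TSSs (19.2%, 6.55 to 39.4), against 3 of 86 pairs on the same strand (3.49%, 0.725 to 9.86). The chromosome 13 cluster from Olfr1370 to Olfr1359 carried 3 of these 5 pairs, and without it, an alternative chosen after seeing the data, the counts were 2 of 21 on opposite strands (9.52%, 1.17 to 30.4) and 3 of 79 on the same strand (3.80%, 0.790 to 10.7). On the other autosomes the order was the opposite, with 13 of 378 pairs on opposite strands (3.44%) and 49 of 843 on the same strand (5.81%). Pairs on opposite strands were also farther apart among the 140 genes, with a median gap of 28.3 kb, against 16.9 kb on the same strand. Among pairs at most 50 kb apart the counts were 2 of 18 on opposite strands and 1 of 79 on the same strand. Whether the gap accounts for the difference was not tested.

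Pseudogenes and protein-coding OR genes lay at like distances from boundaries. Pseudogene types had a median of 59.8 kb to the nearest boundary and 7 of 29 within 25 kb (24.1%, 10.3 to 43.5), against 63.8 kb and 22 of 111 (19.8%, 12.9 to 28.5) for protein-coding OR genes.

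The median repeat share of the intervals was above the repeat share of the autosomes as a whole, which lay between the quartiles of the intervals. A median of 38.0% of bases was marked as repeat in the 36 intervals (22.8 to 66.5, quartiles 31.5 and 42.6), against 33.5% of autosomal bases. The first is a median over intervals and the second a pooled share, so the measures are not alike. The highest value was in the interval of the lone gene Olfr266, near Cd53, a leukocyte tetraspanin gene.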
